A study of Mus with 2 samples.

Results

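Cyclins E, A and B and the kinases they switch on drive a cell from G1 through S phase into mitosis, and a resting stem cell keeps them low. Transcripts of 7 such genes were followed in single cells sorted as mouse hematopoietic stem cells (HSCs): Ccne1 and Ccne2 (cyclins E), Ccna2 (cyclin A), Ccnb1 and Ccnb2 (cyclins B), and the kinases Cdk1 and Cdk2. The members were taken by gene symbol, with no threshold on a measured value, and each of the 7 symbols matched 1 row among the 27998 gene rows of the count tables. The data consisted of 1 single-cell library from Mx1-Cre Id2+/+ mice and 1 from Mx1-Cre mice in which Id2 had been deleted (Id2Δ/Δ, here Id2 deleted). Each library pooled marrow from the tibias and fibulas of 5 mice aged 8 to 12 weeks, from which 1000 LSK FLT3- CD150+ CD48- cells (LSK: lineage-negative, Sca-1+ and c-Kit+) were sorted for capture by 10x Genomics Chromium. Both genotypes carry the Mx1-Cre transgene, a recombinase driven by an interferon-responsive promoter that poly(I:C) switches on, and by the study's methods the cells were taken after that treatment. It acts throughout the blood system and in other responsive tissues, not in HSCs alone. The labels give no mark of the animal, and although the title and genotype entry of the Id2-deleted sample name the deleted allele, 1 clause of its protocol text speaks of bones from Id2+/+ animals. With 1 library per genotype no replicate check was possible, so no test was run, and cells were not used as replicates.

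Cyclin E binds Cdk2 and commits a cell to DNA replication. Cyclin A serves both kinases in S phase and G2, and cyclin B with Cdk1 forms the complex that starts mitosis and must be destroyed for a cell to leave it. The cyclin transcripts rise and fall with the cell cycle, whereas Cdk2 is transcribed more evenly. In adult marrow most HSCs rest outside the cycle, while erythroid progenitors divide fast. In mm10 the genes lie at chromosome 7, 38097984 to 38107490 (Ccne1), chromosome 4, 11190433 to 11204779 (Ccne2), chromosome 3, 36564865 to 36573038 (Ccna2), chromosome 13, 100778739 to 100786486 (Ccnb1), chromosome 9, 70407689 to 70421554 (Ccnb2), chromosome 10, 69335146 to 69352912 (Cdk1) and chromosome 10, 128697938 to 128705051 (Cdk2), by RefSeq. The assembly of that annotation, GRCm38.p6, has the coordinates of mm10. RefSeq also lists the pseudogenes Ccnb1-ps and Ccnb2-ps, which have no row of their own in the tables, so reads of Ccnb1 and Ccnb2 could be shared with these copies and their counts are uncertain to that extent.

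Each value below is a sum of unique molecular identifiers (UMIs, 1 per captured transcript) over all cells of a kind, scaled to CPM, the counts per 1000000 of that sum. The range in parentheses is the exact 95% interval of the count, which covers counting error only. The libraries held 8612217 (Id2+/+) and 17140713 (Id2 deleted) UMIs, and 333 and 625 barcodes passed as cells, with 1 barcode in common. Clustering without the 7 genes and without the S and G2/M gene lists gave stem (206 and 364 cells), platelet-biased (56 and 54), erythroid (44 and 169) and neutrophil (27 and 38) cells, with median depths of 6615 and 9038.5 UMIs in stem cells against 33769.5 and 38755 in erythroid cells. Erythroid and neutrophil cells are outside the sort gate, yet they carried their defining markers: Klf1, an erythroid transcription factor, stood at 571 and 643 CPM in erythroid cells against 32.8 and 36.3 CPM in stem cells, and Elane, a neutrophil protease, at 21550.1 and 25470.3 CPM in neutrophil cells. Pf4, a platelet chemokine, marked the platelet-biased cells at 3126 and 6302 CPM. Hlf, an HSC transcription factor, was highest in the stem cells, at 187 and 109 CPM. Id2 itself gave 20 UMIs in Id2+/+ stem cells and 0 in all 4 kinds of the Id2-deleted library, as its label says. Barcodes with 1 to 100 UMIs (empty droplets), which catch free RNA of broken cells, held 46.3% and 22.4% of all UMIs.

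A summed level cannot tell fewer cycling cells from less RNA per cell, and the comparisons of kinds within a library share its stem cells. The 7 genes together were lowest in stem cells and highest in erythroid cells in both libraries. The stem cells with Id2 held 197 CPM (174 to 221) and those without it 302 CPM (284 to 321); pairs of values below keep this order, Id2+/+ first. Neutrophil cells held 461 CPM (401 to 527) and 619.6 CPM (563 to 681), and platelet-biased cells 563 CPM (507 to 623) and 763 CPM (712 to 816). Erythroid cells held 1359 CPM (1298 to 1421) and 1547 CPM (1516 to 1577), which is 6.91 (6.10 to 7.85) and 5.12 (4.81 to 5.45) times the stem level of the same library. Of the 7 genes, 6 were at least 2-fold higher in erythroid than in stem cells in each library, where 10.6% of all genes tested passed that fold in the Id2+/+ library and 10.6% in the Id2-deleted library.

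**Figure D1:**
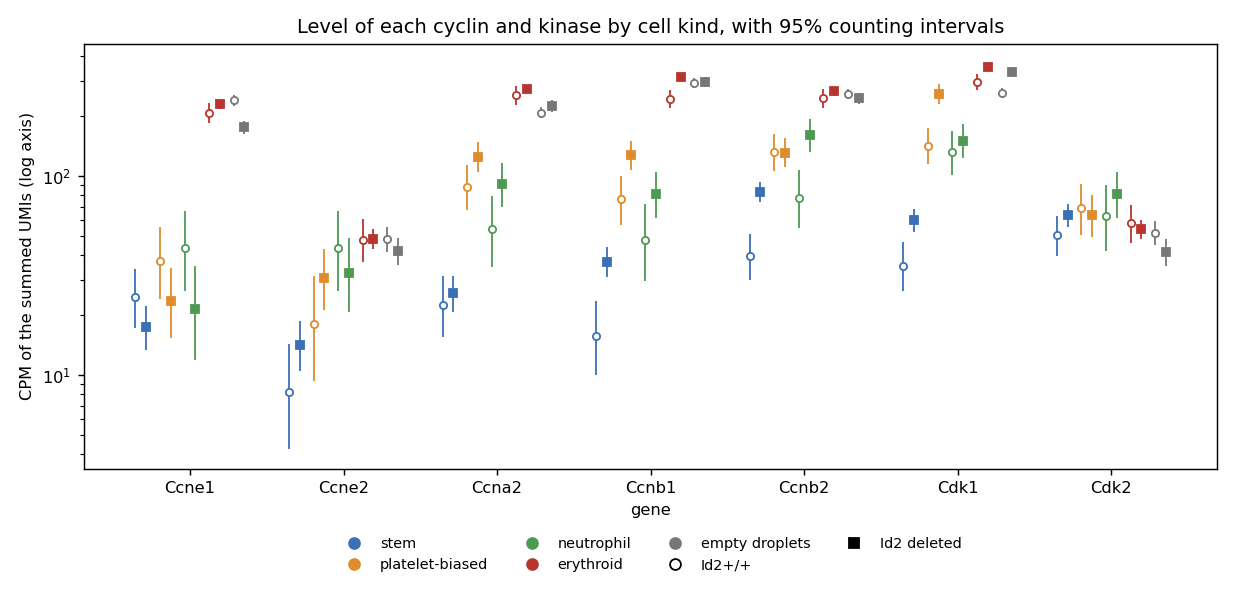
CPM of each gene (log axis) in the summed UMIs of 4 cell kinds and of empty droplets; open circles are the Id2+/+ library, filled squares the Id2-deleted library, and bars 95% counting intervals. Stem cells (blue) were lowest for 6 of the genes and erythroid cells lay close to the empty droplets, whereas Cdk2 lay between 41.6 and 81.2 CPM throughout.

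The E cyclins separated by kind. Ccne1 stood out in erythroid cells, at 209 CPM (185 to 234) and 229.6 CPM (218 to 242) in erythroid cells of the Id2+/+ and Id2-deleted libraries against 24.6 CPM (17.2 to 34.0) and 17.5 CPM (13.4 to 22.3) in stem cells. Its platelet-biased level, 37.4 CPM (24.2 to 55.3) and 23.6 CPM (15.4 to 34.5), had intervals that overlapped those of stem cells and of neutrophil cells in the same library. Ccne2 was spread more evenly over the kinds. It stood at 8.19 CPM (4.23 to 14.3) and 14.1 CPM (10.5 to 18.6) in stem cells, 18.0 CPM (9.28 to 31.4) and 30.8 CPM (21.4 to 43.1) in platelet-biased cells, 43.3 CPM (26.5 to 66.9) and 32.8 CPM (20.8 to 49.2) in neutrophil cells, and 47.9 CPM (37.1 to 60.8) and 48.4 CPM (43.2 to 54.1) in erythroid cells. The erythroid to stem ratio was 8.49 (5.99 to 12.4) and 13.1 (10.2 to 17.2) for Ccne1 and 5.84 (3.14 to 11.9) and 3.42 (2.54 to 4.70) for Ccne2. In the Id2-deleted library these intervals did not overlap. In the Id2+/+ library, with 12 stem UMIs of Ccne2, they did.

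Ccna2, which acts from S phase to the start of mitosis, was graded in the order stem, neutrophil, platelet-biased, erythroid. It stood at 22.5 CPM (15.5 to 31.6) and 25.8 CPM (20.8 to 31.6) in stem cells, 54.1 CPM (35.0 to 79.9) and 91.2 CPM (70.2 to 116) in neutrophil cells, 88.3 CPM (67.2 to 114) and 125 CPM (105 to 148) in platelet-biased cells and 255 CPM (229 to 283) and 276 CPM (263 to 289) in erythroid cells. The intervals of neutrophil and platelet-biased cells overlapped in both libraries. Ccnb1 followed the same order, from 15.7 CPM (9.95 to 23.5) and 37.1 CPM (31.1 to 44.0) in stem cells, through 47.6 CPM (29.9 to 72.1) and 81.2 CPM (61.5 to 105) in neutrophil cells and 76.4 CPM (56.9 to 100.4) and 128 CPM (108 to 151) in platelet-biased cells, to 245 CPM (219.8 to 272) and 317 CPM (303 to 331) in erythroid cells. With all stem clusters counted, Ccnb2 differed less between kinds. In the Id2-deleted library its neutrophil and platelet-biased levels were in the other order, with overlapping intervals. Stem cells held 39.6 CPM (30.1 to 51.2) and 83.7 CPM (74.5 to 93.7), neutrophil cells 77.9 CPM (54.6 to 108) and 161 CPM (133 to 194), platelet-biased cells 132 CPM (106 to 162) and 131 CPM (111 to 155), and erythroid cells 246 CPM (221 to 274) and 267 CPM (255 to 279.9). The erythroid to stem ratio of the B cyclins was 15.6 (10.2 to 25) and 8.53 (7.16 to 10.2) for Ccnb1 against 6.23 (4.70 to 8.37) and 3.19 (2.82 to 3.62) for Ccnb2, with no overlap in either library. Of the 302 Ccnb2 UMIs of Id2-deleted stem cells, 262 lay in the Ccnb2-led cluster described below. Without it the stem level there was 16.9 CPM (12 to 23.0) for Ccnb2 and 24.5 CPM (18.6 to 31.6) for Ccnb1. The smaller Ccnb2 ratio of the Id2-deleted library thus rests on that cluster.

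The kinases went separate ways. Cdk1, the mitotic kinase, was graded like the A and B cyclins, from 35.5 CPM (26.5 to 46.5) and 60.2 CPM (52.4 to 68.7) in stem cells to 298 CPM (270.0 to 328) and 355 CPM (340.4 to 369.7) in erythroid cells, with 142 CPM (115 to 174) and 260.3 CPM (231 to 292) in platelet-biased and 132 CPM (101 to 169.7) and 151 CPM (124 to 183) in neutrophil cells. Cdk2, the partner of cyclin E, was the exception among the 7. Its level was 50.5 CPM (39.6 to 63.4) and 63.8 CPM (55.8 to 72.6) in stem cells and 57.9 CPM (45.9 to 71.9) and 54.0 CPM (48.5 to 60.0) in erythroid cells. The erythroid to stem ratio of 1.15 (0.826 to 1.59) and 0.847 (0.715 to 1.01) had intervals that took in 1. The platelet-biased to stem ratio of 1.36 (0.923 to 2.0) and 0.996 (0.751 to 1.31) did so too.

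Platelet-biased cells stood above stem cells for most of the 7 genes. At least 2-fold higher were 5 of the 7 genes in the Id2+/+ library, where 4.12% of all genes tested passed, and 4 of the 7 in the Id2-deleted library, where 4.22% passed. The ratios of platelet-biased to stem cells were 3.92 (2.52 to 6.20) and 4.85 (3.71 to 6.38) for Ccna2, 4.87 (2.92 to 8.34) and 3.44 (2.70 to 4.39) for Ccnb1, and 4.01 (2.83 to 5.73) and 4.33 (3.61 to 5.19) for Cdk1. Ccne2 passed in both libraries too, at 2.19 (0.902 to 5.34) and 2.18 (1.37 to 3.43), with an Id2+/+ interval that took in 1. Ccnb2 passed in the Id2+/+ library only, at 3.33 (2.36 to 4.72) against 1.57 (1.28 to 1.92). The latter rests on the Ccnb2-led cluster described below. Without it the Id2-deleted stem level of Ccnb2 was 16.9 CPM in place of 83.7 CPM, against 131 CPM in platelet-biased cells. Ccne1 passed in neither, at 1.52 (0.877 to 2.61) and 1.35 (0.820 to 2.16). The Id2+/+ platelet-biased cells were those of a cluster led by Ccl5 and Hist1h2ap and the Id2-deleted ones those of a cluster led by Pf4 and Gp1bb, which also had Aurkb and Top2a, both needed for mitosis, among its 10 leading genes.

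The free RNA carried the erythroid pattern. Empty droplets held 1365 CPM (1329 to 1402) and 1364 CPM (1327 to 1401) of the 7 genes, 1.0 (0.953 to 1.06) and 0.882 (0.853 to 0.912) times the erythroid level of the same library. The Ccnb1 level there was 293 CPM (277 to 311) and 298 CPM (281 to 316), and for Ccne1 241 CPM (226 to 257) and 176 CPM (163 to 189.8). The same 6 genes, all but Cdk2, were at least 2-fold higher in empty droplets than in stem cells, against 11.8% of all genes tested in the Id2+/+ library and 8.32% in the Id2-deleted library. Ccne1 was the member whose free level differed most between the libraries, with an Id2-deleted to Id2+/+ ratio of 0.729 (0.660 to 0.805).

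The mix of the 7 genes also differed between stem, platelet-biased and erythroid cells, while that of erythroid cells lay close to that of empty droplets. In erythroid cells Cdk2 gave 4.26% (3.40 to 5.27) and 3.49% (3.14 to 3.87) of the UMIs of the 7 genes, and in empty droplets 3.79% (3.30 to 4.33) and 3.05% (2.60 to 3.55). In stem cells it gave 25.7% (20.7 to 31.1) and 21.1% (18.7 to 23.6). Ccne1 gave 15.4% and 14.8% in erythroid cells and 17.7% and 12.9% in empty droplets, against 6.65% (4.35 to 9.66) and 3.09% (2.03 to 4.50) in platelet-biased cells. Some shares of erythroid cells and empty droplets differed beyond counting error, that of Ccne1 in the Id2-deleted library among them. In the Id2+/+ library Ccna2 gave 18.8% (17.0 to 20.6) against 15.3% (14.4 to 16.3), and Ccnb1 18.0% (16.3 to 19.8) against 21.5% (20.4 to 22.6). These are shares of UMIs for 1 gene set against the same gene in another kind; no level of 1 gene was set against that of another gene, since capture may differ between transcripts. Ccne2 took its largest share in neutrophil cells, 9.39% (5.83 to 14.1) and 5.29% (3.38 to 7.83), from 20 and 23 UMIs. Cdk1 took its largest share in Id2-deleted platelet-biased cells, 34.1% (30.9 to 37.4), against 25.3% (21.0 to 30.0) in the Id2+/+ ones.

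**Figure D2:**
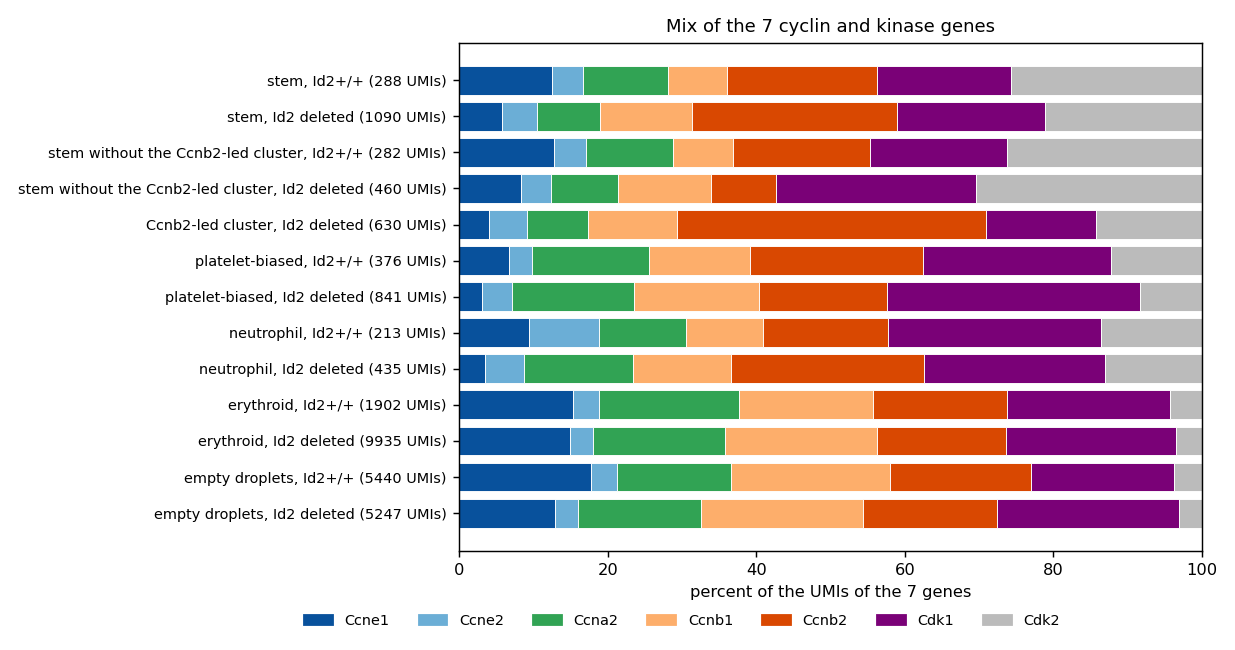
Percent of the UMIs of the 7 genes that each gene gave, for each cell kind, for stem cells without the Ccnb2-led cluster, for that cluster of Id2-deleted cells, and for empty droplets, by library; the number of UMIs is in each label. Erythroid cells and empty droplets showed a similar mix, with some shares apart beyond counting error, while Cdk2 took 25.7% in Id2+/+ stem cells and Ccnb2 41.6% in the Ccnb2-led cluster.

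How much of the stem level free RNA could give was computed from haemoglobin, with all haemoglobin of stem cells taken to be free RNA. Hbb-bt, a globin gene, stood at 264 CPM (238 to 292) and 235 CPM (219 to 251) in stem cells. Platelet-biased cells held 106 and 89.8 CPM of it, and neutrophil cells 156 and 71.2 CPM. Hba-a1 differed less, at 157 and 106 CPM in stem and 181 and 98.8 CPM in platelet-biased cells. Whether stem cells held Hbb-bt of their own was not tested. If they did, the shares below are too high for them. Haemoglobin UMIs put the share of free RNA at 10.9% of the UMIs of Id2+/+ stem cells and 5.77% of those of Id2-deleted stem cells. At those shares, free RNA would give 38.7 Ccne1 UMIs in Id2+/+ stem cells, where 36 were counted, and 33.5 Ccna2 UMIs, where 33 were counted. For Ccnb1 it would give 47.0, more than the 23 counted. The Id2+/+ stem level of Ccnb1 was 5.35% (3.38 to 8.07) of its empty-droplet level, so the haemoglobin share lay above what Ccnb1 allows, and the true share in these cells was not settled by these values. Cdk1, with 52 counted and 41.9 expected, and Ccne2, with 12 and 7.72, had counting intervals that took in the expected value, and Ccnb2 had 58 against 41.6. Cdk2 stood far above the free level, with 74 UMIs counted and 8.28 expected. In Id2-deleted stem cells all 7 genes were above the counts that free RNA would give: Ccne1 with 63 against 36.7, Ccna2 with 93 against 47.1, Ccnb1 with 134 against 62.1, and Ccnb2 with 302 against 51.3. At the haemoglobin share the Id2+/+ stem counts of Ccne1, Ccne2, Ccna2 and Cdk1 can thus not be told apart from free RNA. At the 5.35% that Ccnb1 allows, free RNA would give 18.9 Ccne1, 3.78 Ccne2, 16.4 Ccna2 and 20.5 Cdk1 UMIs, and the counting intervals of these 4 genes lay above those values. How far the Id2+/+ stem levels exceed free RNA therefore depends on the share, and the ratios between libraries below rest on it.

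**Figure D3:**
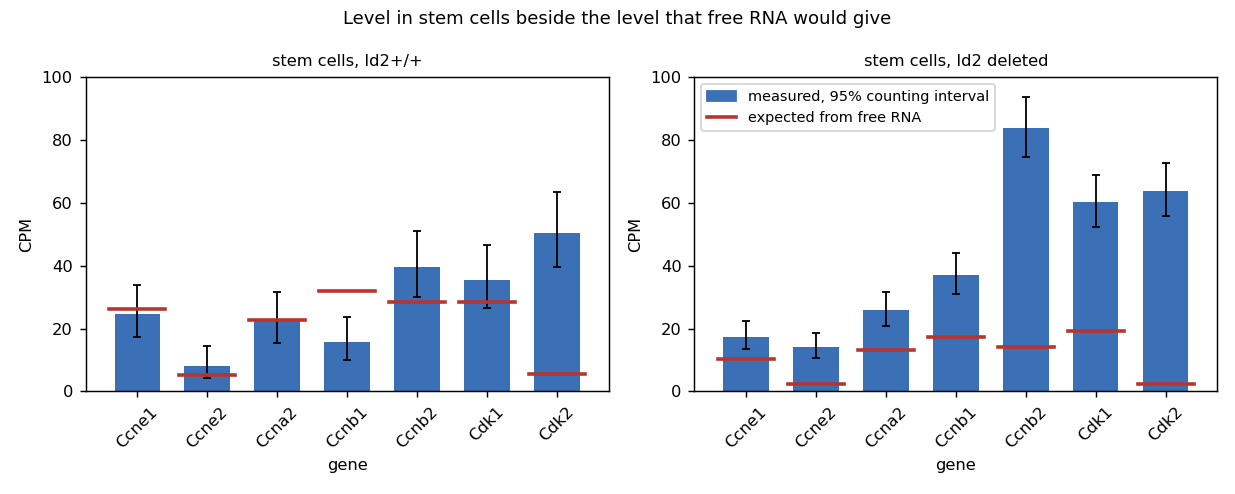
CPM of each gene in stem cells (blue bars, with 95% counting intervals) and the CPM that free RNA would give at the haemoglobin share (red lines), by library. In the Id2+/+ library Ccne1, Ccna2 and Ccnb1 lay at or below the red line and Cdk2 well above it.

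The question the study put to these libraries was how HSCs without Id2 differ from HSCs with it. In stem cells the 7 genes together stood 1.54 (1.35 to 1.76) times as high in the Id2-deleted library as in the Id2+/+ library. Ccnb1 went from 23 UMIs to 134, a ratio of 2.37 (1.51 to 3.86), and Ccnb2 from 58 to 302, a ratio of 2.12 (1.59 to 2.85). Cdk1 had a ratio of 1.70 (1.25 to 2.34). The other 4 genes had intervals that took in 1: 0.711 (0.465 to 1.10) for Ccne1, 1.73 (0.908 to 3.56) for Ccne2, 1.14 (0.762 to 1.76) for Ccna2 and 1.26 (0.968 to 1.66) for Cdk2. A ratio of 1.5 or more was found for 4 of the 7, Ccne2 among them, where 5.48% of all genes tested reached it. None of the 7 had a ratio of 0.667 (1.5-fold lower) or less, which 14.4% of all genes had. After subtraction of the empty-droplet profile at the haemoglobin share the ratio of the 7 genes was 3.21, and 1.82 with that share held to what the lowest member allows.

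This ratio turned on a single cluster. A cluster of 108 Id2-deleted cells and 1 Id2+/+ cell was led by Ccnb2, Hist1h2bc, Knstrn, Cenpa and Cdkn3, most of them genes of mitosis, although Ccnb2 had been kept out of the clustering. No cell class could be given to it, so it was counted among the stem cells. Its platelet-marker level of 1802 CPM and HSC-marker level of 801 CPM lay between those of the other Id2-deleted stem clusters (625 to 882 and 755 to 1377 CPM) and those of the Id2-deleted platelet-biased cells (9459 and 479.7 CPM), except that 1 stem cluster had fewer HSC-marker UMIs. The cluster held 212 CPM (187 to 239) of Ccnb2, 61.5 CPM (48.5 to 77.0) of Ccnb1, 42.1 CPM (31.4 to 55.2) of Ccna2 and 75.3 CPM (60.8 to 92.2) of Cdk1. Ccnb2 gave 41.6% (37.7 to 45.5) of the UMIs of the 7 genes there, more than in any kind of either library. These values describe a cluster drawn by its own expression and are no test.

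With that cluster left out, the levels of the 7 genes together differed by less than counting error, at 193 CPM (171 to 217) and 194 CPM (176.6 to 212), and their ratio was 1.0 (0.864 to 1.17). Ccnb2 then stood lower in the Id2-deleted library, 35.6 CPM (26.6 to 46.7) against 16.9 CPM (12 to 23.0), a ratio of 0.474 (0.306 to 0.729). The cluster was picked by members and cell-cycle genes among its leading genes, and nearly all its cells are Id2-deleted. Part of the fall of the Ccnb2 ratio, and of that of the 7 genes, is fixed by taking it out. Id2+/+ stem cells lost only 1 cell by this step. The ratio of 1.0 is thus no test of equal levels in the remaining stem cells. Cdk1 had a ratio of 1.47 (1.05 to 2.07), with 52 and 124 UMIs, of which 43 came from 49 Id2-deleted cells of a cluster led by Lgals3. With that cluster left out as well, the Cdk1 ratio was 1.29 (0.901 to 1.88) and that of the 7 genes 0.948 (0.805 to 1.12), over 204 and 207 cells. Ccnb1 had 1.55 (0.943 to 2.64) without the Ccnb2-led cluster. Past 1.5-fold, 1 gene (Ccnb1) was higher, where 4.77% of all genes were, and 2 (Ccne1 and Ccnb2) were lower, where 12.2% of all genes were. When stem and platelet-biased cells were instead divided cell by cell, by whether platelet-marker UMIs outnumbered HSC-marker UMIs, the 159 Id2+/+ and 219 Id2-deleted cells on the HSC side held 194 and 236 CPM of the 7 genes, with 66 and 92 of these cells within 1.5-fold of the line.

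Stem and platelet-biased cells as a single set, 262 and 418 cells, give a value that does not depend on which of the kinds that cluster is put in, though it still depends on whether the cluster is kept. There the 7 genes stood at 311 CPM (288 to 336) and 410.0 CPM (392 to 429), with a ratio of 1.32 (1.21 to 1.44). Ccnb1, Cdk1 and Ccnb2 were higher in the Id2-deleted library, at ratios of 1.68 (1.30 to 2.21), 1.55 (1.29 to 1.88) and 1.39 (1.15 to 1.68). Without the Ccnb2-led cluster these ratios were 1.65, 1.71 and 0.809, so that of Ccnb2 turned, and that of the 7 genes was 1.21. Ccne2 had a ratio of 1.60 (1.01 to 2.64). Ccne1 went the other way, at 0.661 (0.472 to 0.931). The Ccne1 level of the empty droplets was lower in the Id2-deleted library too, and its part in that ratio was not tested. After subtraction at the haemoglobin share, which leaves no Ccne1 in Id2+/+ stem cells, the ratio was 1.95, and with the capped share it was 0.737. Ccna2 and Cdk2, at 1.14 (0.889 to 1.46) and 1.13 (0.913 to 1.41), had intervals that took in 1. The stem and platelet-biased cells came almost wholly from different clusters in the 2 libraries, and library and genotype cannot be told apart.

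**Figure D4:**
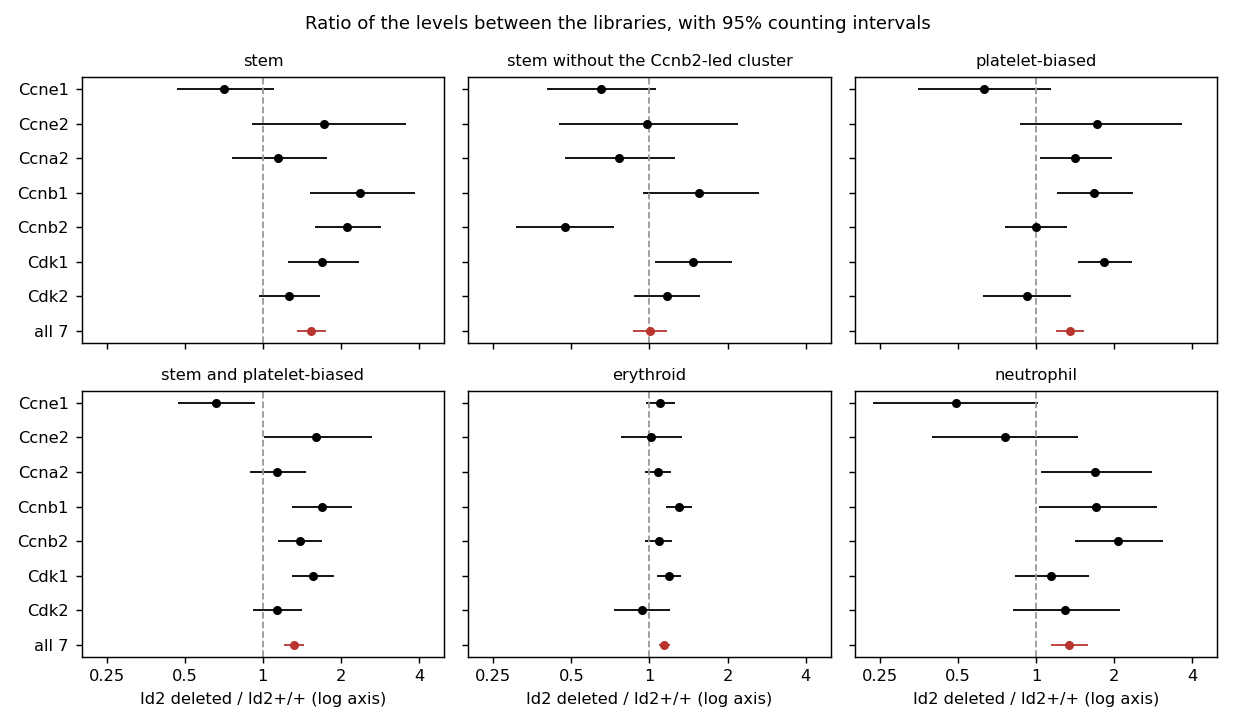
Ratio of the Id2-deleted to the Id2+/+ level of each gene and of all 7 (red), on a log axis, for 4 cell kinds, for stem cells without the Ccnb2-led cluster, and for stem and platelet-biased cells together; bars are exact 95% counting intervals and the dashed line is 1. Ccnb2 moves from 2.12 to 0.474 when the Ccnb2-led cluster is left out of the stem cells, and the 7 erythroid ratios lie between 0.934 and 1.29.

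Among platelet-biased cells alone, Cdk1 had the highest ratio, 1.83 (1.45 to 2.33), from 95 and 287 UMIs in 56 and 54 cells. Ccnb1 and Ccna2 had ratios of 1.67 (1.21 to 2.35) and 1.42 (1.04 to 1.96). That of Ccna2 turned to 0.915 with coarser clustering (resolution 0.5) and to 0.927 with the Ccnb2-led cluster counted as platelet-biased. Ccnb2 had one of 0.998 (0.761 to 1.32), with 132 CPM in the Id2+/+ library and 131 CPM in the Id2-deleted library. Their median depths of 11062 and 20262 UMIs differed as well. In neutrophil cells, of 27 and 38 cells, Ccnb2 had the highest ratio, 2.07 (1.41 to 3.09), and Ccne1 the lowest, 0.493 (0.235 to 1.01).

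In erythroid cells the ratio of the 7 genes was 1.14 (1.08 to 1.20), that of Ccnb1 1.29 (1.15 to 1.45) and that of Cdk1 1.19 (1.07 to 1.33). The intervals of the other 5 genes took in 1, and their ratios ran from 0.934 (Cdk2) to 1.10 (Ccne1). A late cluster of 9 of the 44 Id2+/+ and 14 of the 169 Id2-deleted erythroid cells gave 87.1% and 86.2% of its UMIs to haemoglobin. Before that stage, within cells of clusters with Car1, an early erythroid carbonic anhydrase, among the leading genes, the 7 genes held 1228 CPM (1163 to 1296) in 27 Id2+/+ cells and 1421 CPM (1388 to 1455) in 116 Id2-deleted cells. In the haemoglobin-rich cells they held 98.6 CPM (42.6 to 194) and 333 CPM (238 to 454).

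In the Car1-led cells Ccnb1 stood at 225 CPM (198 to 256) and 287 CPM (272 to 303) in the Id2+/+ and Id2-deleted libraries, and Cdk1 at 268 CPM (237 to 300.4) and 317 CPM (301 to 333). The E cyclins there were at 197 CPM (172 to 226) and 228 CPM (215 to 242) (Ccne1) and at 46.8 CPM (34.7 to 61.7) and 48.1 CPM (42.1 to 54.7) (Ccne2), with intervals that overlapped between the libraries for both genes. In the haemoglobin-rich Id2-deleted cells 14 Cdk1 and 10 Ccnb1 UMIs were counted, 117 CPM (63.8 to 196) and 83.3 CPM (40.0 to 153), and 0 of Ccne1, with an interval up to 30.7 CPM. Since haemoglobin takes most UMIs of those cells, the CPM of every other gene is lowered there. Empty droplets of that library held 334 CPM of Cdk1 and 298 CPM of Ccnb1, and the share of free RNA in erythroid cells could not be computed from haemoglobin, so these counts are not read as expression.

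**Figure D5:**
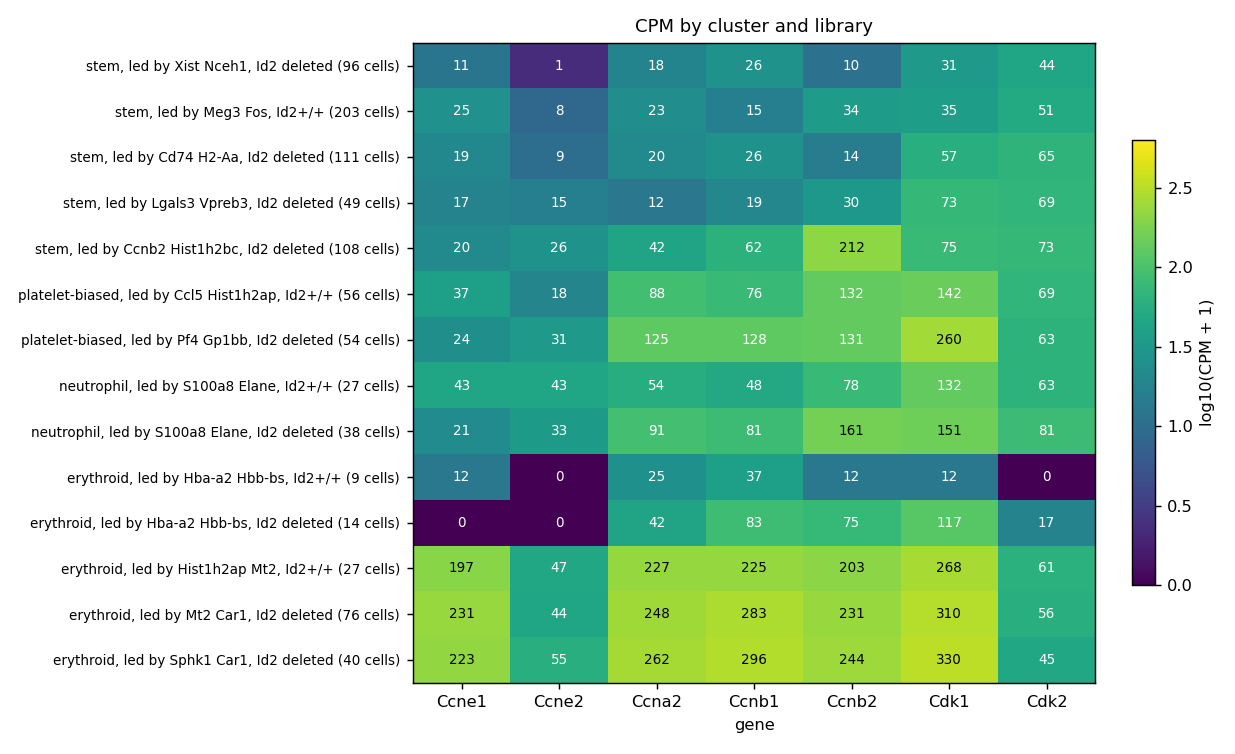
CPM of each gene (number in each cell; colour is log10 of CPM + 1) by cluster and library, for the stem, platelet-biased, neutrophil, Car1-led and haemoglobin-rich erythroid clusters with at least 5 cells of a library; rows are named by cell kind and by the first leading genes. Ccnb2 reached 212 CPM in 1 Id2-deleted stem cluster and 10.0 to 33.9 CPM in the other stem clusters, and all 7 genes were lower in the haemoglobin-rich cells (led by Hba-a2) than in the other erythroid clusters shown.

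Over the 4 stem clusters other than the Ccnb2-led one, Ccna2, Ccnb1 and Cdk2 spanned less than 2-fold and Ccne1, Ccne2, Ccnb2 and Cdk1 more. Cdk2 stood between 43.8 CPM in an Id2-deleted cluster of 96 cells and 69.4 CPM in one of 49 cells, with 51.1 CPM in the Id2+/+ cluster of 203 cells. Cdk1 ran from 31.3 to 72.8 CPM, Ccne1 from 11.3 to 24.9 CPM and Ccna2 from 11.9 to 22.8 CPM over these 4 clusters. Ccne2 varied most in relative terms, from 1.25 CPM (0.0317 to 6.97) in the 96 cells to 15.2 CPM (6.97 to 28.9) in the 49 cells. The 49 cells belong to a cluster of 50, led by Lgals3, Vpreb3, a gene of B cell precursors, and Ly6c2, a gene of monocytes. All 10 leading genes of that cluster, Lyz2, Igll1 and Dntt among them, are known from lymphoid or myeloid cells. The leading genes were taken over both libraries. Vpreb3 had 3 UMIs in all Id2-deleted stem cells against 24 in the Id2+/+ ones, so it is not shown to be a trait of the 49 cells. No cell class could be given to them, so they too were counted among the stem cells. They had the highest Cdk1 level of the 4, 72.8 CPM (52.7 to 98.1). Without this cluster, with 205 Id2+/+ and 315 Id2-deleted stem cells left, the stem ratio of the 7 genes was 1.63 (1.43 to 1.87), that of Ccnb2 2.49 (1.86 to 3.39) and that of Cdk1 1.65 (1.20 to 2.30). The Id2+/+ cluster was led by Meg3, Fos and Dusp1, and Fos and Dusp1 are immediate early genes that also mark handling stress.

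Per cell, the members were sparse in stem cells. Because depth differed between libraries and kinds, shares of cells with a UMI are means over all ways to thin each cell to 5800 UMIs, a step that left out 64 Id2+/+ stem cells of lower depth and no Id2-deleted one. At least 1 UMI of any of the 7 genes was then found in 59.1% (50.6 to 67.3) of 142 Id2+/+ and 67.9% (62.8 to 72.6) of 364 Id2-deleted stem cells (67.0% and 79.9% without thinning). Free RNA at the haemoglobin share would alone give 57.9% and 36.7%. At the lower Id2+/+ share that Ccnb1 allows, it would give 34.5% in the Id2+/+ library. For Cdk2 the shares were 25.2% (18.4 to 33.3) and 28.4% (23.7 to 33.2), against 3.22% and 1.38% from free RNA. For Ccnb1 they were 9.37% (4.97 to 15.1) and 16.4% (12.8 to 20.7), against 17.0% and 9.5% at the haemoglobin share. The Cdk2 shares in erythroid cells lay within the intervals of those in stem cells, 24.0% (12.1 to 39.5) and 26.0% (19.6 to 33.3). Ccnb1 reached 63.3% (48.0 to 78.4) and 74.4% (67.3 to 80.9) of erythroid cells.

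Cells with several members at once were least frequent among stem cells and most frequent among erythroid cells. After thinning, 3 or more of the 7 genes were seen in 8.70% of Id2+/+ and 11.0% of Id2-deleted stem cells, in 31.5% and 45.3% of platelet-biased cells, in 32.2% and 43.9% of neutrophil cells and in 73.8% and 86.7% of erythroid cells. Free RNA at the haemoglobin share would alone give 3 or more in 3.42% and 0.622% of stem, 2.40% and 0.262% of platelet-biased and 2.64% and 0.217% of neutrophil cells, and has no value for erythroid cells. In Id2-deleted platelet-biased cells, 78.6% of the cells with Ccna2 also had Cdk1, against 46.9% of the cells without Ccna2. For Ccnb1 and Cdk1 the shares were 79.1% and 48.7%. In the Id2+/+ platelet-biased cells these shares were 46.9% and 37.0% for Ccna2, and 37.1% and 40.4%, in the other order, for Ccnb1. In Id2-deleted stem cells Ccnb1 and Cdk1 gave 25.3% and 24.4%, while Ccnb1 went with Ccnb2, at 35.7% of the cells with Ccnb1 and 14.8% of those without. Within the Ccnb2-led cluster 66.8% of cells with Ccnb1 had Ccnb2, against 31.5% of those without, and outside it the shares were 13.8% and 8.50%. Ccne2 went with both kinases in Id2-deleted stem cells, with Cdk1 in 50.2% of the cells with Ccne2 against 23.1% of those without, and with Cdk2 in 50.5% against 27.1%. The Id2+/+ stem cells gave 24.7% and 12.1% for Ccnb1 and Ccnb2, 26.6% and 15.2% for Ccne2 and Cdk1, and 28.2% and 25% for Ccne2 and Cdk2, from few cells. These shares describe cells of 1 library each.

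UMIs of Ccnb2 sat in few stem cells. In the Id2-deleted stem cells the 37 cells with the most Ccnb2, of 364, held 82.5% of its UMIs, the highest cell holding 12. The 37 cells with the most Cdk2 held 38.7% of its UMIs, the highest cell holding 4. In the Id2+/+ stem cells the 21 highest of 206 cells held 77.6% of the Ccnb2 UMIs and 47.3% of the Cdk2 UMIs. A gene with fewer UMIs fills fewer cells, so these shares also move with the count.

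Stem and platelet-biased cells of each library were then ranked into 4 near-equal ranks by their UMIs per 10000 of a G2/M list of 52 genes that holds none of the 7. The highest rank carried the A and B cyclins and Cdk1. In the Id2+/+ library Ccnb2 stood at 22.5, 24.9, 31.6 and 154 CPM (126 to 186) from the lowest to the highest rank, and in the Id2-deleted library at 21.1, 26.5, 23.7 and 231 CPM (208 to 256). Cdk1 reached 144 CPM (117 to 175) and 228 CPM (205 to 253) in the highest rank, against 33.8 CPM (18.9 to 55.7) and 30.0 CPM (19.8 to 43.7) in the lowest. In the lowest rank the 7 genes together held 162 CPM (127 to 204) and 157 CPM (132 to 185), with overlapping intervals, while in the highest they held 596 CPM (541 to 656) and 837 CPM (793 to 883). Cdk2 differed less, going from 56.3 CPM (36.4 to 83.1) and 44.5 CPM (31.8 to 60.5) to 67.1 CPM (49.3 to 89.2) and 73.2 CPM (60.6 to 87.6). The Cdk2 intervals overlapped in the Id2+/+ library and narrowly missed each other in the Id2-deleted one. Depth moved with the rank, with median UMIs of 6544 and 7921 in the lowest and 9932 and 13913.5 in the highest rank. The top ranks were not alike between the libraries, with a median list level of 38.9 UMIs per 10000 in Id2+/+ and 64.5 in Id2-deleted cells, against 14.1 and 15.3 in the lowest ranks.

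Ranked by a list of 42 S-phase genes instead, the same cells set the E cyclins and Ccnb2 apart in the Id2-deleted library. Ccne2 stood at 3.54, 3.06, 7.52 and 44.4 CPM (34.6 to 56.2), and Ccne1 at 13, 8.16, 15 and 32.2 CPM (23.9 to 42.5). Ccnb2 went the other way at the top, with 97.8, 139.8, 132 and 32.8 CPM (24.5 to 43.2). Both kinases were highest in the top S rank, Cdk1 at 150.1 CPM (131 to 171) against 42.4 CPM (29.7 to 58.7) in the lowest and Cdk2 at 90.8 CPM (76.4 to 107) against 37.7 CPM (25.8 to 53.2). In the Id2+/+ library Cdk1 showed it too, with 119 CPM (96.0 to 147) against 40.9 CPM (23.8 to 65.5), while the intervals of Cdk2, Ccne1, Ccne2 and Ccnb2 overlapped between the top and the lowest rank. Ccne2 stood there at 4.81, 15.5, 0 and 19.9 CPM (11.1 to 32.8), and Ccnb2 at 93.9, 71.1, 58.4 and 59.7 CPM (43.5 to 79.9). Depth moved with this rank too, from median UMIs of 5749 and 7723 in the lowest to 10897 and 13880.5 in the highest. The top ranks of the S and G2/M lists shared 34 of 65 Id2+/+ and 54 of 104 Id2-deleted cells, so the rankings are not of separate cells.

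The genes whose levels across cells ran most like each member were found among 2922 genes with at least 50 UMIs in each of 4 sets of cells (stem and erythroid, by library), by the mean of the 4 Pearson correlations; the cells of a set share library and depth, and no p is given. Ccnb2 had the closest partners: Cenpa, the centromeric histone (mean r 0.56), Hmgb2, a chromatin protein of dividing cells (0.56), and Lockd, a non-coding RNA next to Cdkn1b (0.53). The r of Ccnb2 with Cenpa was 0.70 in 364 Id2-deleted stem cells and 0.22 in 206 Id2+/+ stem cells, and 0.69 and 0.64 in Id2+/+ and Id2-deleted erythroid cells. The 364 cells include the 108 of the cluster led by Ccnb2 and Cenpa, and without that cluster r was 0.03 in 256 Id2-deleted and 0.17 in 205 Id2+/+ stem cells. With Hmgb2 and Lockd it was 0.07 and 0.08 in those 256 cells. Ccne2 had genes of DNA replication: 2810417H13Rik (Pclaf in RefSeq, a partner of PCNA; mean r 0.44), Pcna, the sliding clamp (0.37), and Rpa2, which coats single-stranded DNA (0.36). Ccna2, Ccnb1 and Cdk1 shared Birc5, the survivin of the mitotic spindle, at mean r of 0.47, 0.47 and 0.47. Ccna2 also ran with 2810417H13Rik (0.46) and Hmgb2 (0.45), Ccnb1 with Ube2s, which helps the anaphase-promoting complex destroy cyclin B (0.47), and Smc4 of condensin (0.44), and Cdk1 with Smc4 (0.46) and Smc2 (0.46). Ccne1 ran with the ribosomal gene Rps2 (0.44), the helicase gene Mcm3 (0.43) and Hint1 (0.42), and Cdk2 with Hint1 (0.32), Dut (0.31) and Anp32b (0.29). In the Id2-deleted stem cells, leaving out the Ccnb2-led cluster took r from 0.30 to 0.05 for Ccna2 and Birc5, from 0.34 to 0.08 for Ccnb1 and Birc5, from 0.25 to 0.03 for Ccnb1 and Ube2s and from 0.21 to -0.01 for Ccna2 and Hmgb2. Over the 21 pairs it then ran from -0.01 to 0.28. In the Id2+/+ stem cells the r of these 21 pairs ran from -0.02 to 0.43, and values this low in sparse counts are no finding, while the erythroid values include the haemoglobin-rich cells in which all of these genes are low.

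The wider machinery was read from 39 genes that activate, inhibit, degrade or drive the transcription of the cyclins and kinases. In stem cells 34 of them had at least 20 UMIs, and 9 were at least 1.5-fold higher in the Id2-deleted library and 0 lower, with a median log2 ratio of 0.17 against -0.08 over all genes tested. By role, 4 of 12 activators, 0 of 5 inhibitors, 3 of 10 genes of degradation and 2 of 7 transcription genes were past that fold, where 5.48% of all genes were. The intervals of 5 of the 9 left out 1. Cdc20, which directs the anaphase-promoting complex to cyclin B, went from 30.0 to 54.6 CPM, a ratio of 1.82 (1.31 to 2.58), and E2f1, an activator of cyclin E and A transcription, from 27.3 to 49.6 CPM, a ratio of 1.82 (1.28 to 2.63). Cks1b and Cks2, small subunits that bind the kinases, had ratios of 1.54 (1.29 to 1.84) and 1.53 (1.31 to 1.79), and Cdk7, the kinase that activates Cdk1 and Cdk2, 1.56 (1.04 to 2.40). Cdkn1c, the inhibitor p57 that marks resting HSCs, was not past 1.5-fold and is named after its values were seen: it stood at 61.4 and 44.4 CPM, a ratio of 0.722 (0.554 to 0.946), and of 0.835 (0.630 to 1.11) without the Ccnb2-led cluster. Without that cluster 3 of 33 were higher and 1 lower, with a median log2 ratio of -0.01. Cdk7 alone of these 5 then kept an interval above 1, 1.57 (1.02 to 2.46), while Cdc20 was at 0.812 (0.539 to 1.23). The S list had 17 of 42 genes higher and 0 lower with the cluster, and 6 of 41 higher and 1 lower without it. The G2/M list had 20 of 50 higher and 1 lower with it, and 2 of 39 higher and 4 lower without it. Over all genes 5.48% were higher and 14.4% lower with the cluster, and 4.77% and 12.2% without it. That cluster was picked because genes of the 7 and of the S and G2/M lists were among its leading genes, and nearly all its cells are Id2-deleted. Part of the fall of these counts without it is therefore fixed in advance, and the contrast is no test.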

How the data were processed

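Hematopoietic stem cells of 1 Mx1-Cre Id2+/+ and 1 Mx1-Cre Id2-deleted pool were captured by 10x Genomics Chromium. The authors deposited a matrix of whole-number UMI counts per gene and barcode for each library, including empty droplets. The submitters' processing notes name Cell Ranger 2.2.0 and mm10. Samples were grouped by the title and genotype labels. The members and gene lists were chosen with earlier results of these data known, and the partner and pathway genes named follow fixed rules: the 3 highest mean correlations per member, and pathway genes past 1.5-fold whose interval left out 1.

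Barcodes above 10% of the 99th percentile of the 1000 deepest barcodes were called cells, and those above 10% mitochondrial UMIs were left out. Called cells held at least 4419 (Id2+/+) and 6181 (Id2 deleted) UMIs. The study analysed 383 and 686 cells, against 349 and 632 called here and 333 and 625 under the mitochondrial limit. Both libraries were clustered together with scanpy 1.11.5 (2000 variable genes, 20 components, 15 neighbours, resolution 1 and then 0.8), without the members and the S and G2/M lists. Cell kinds were rebuilt from markers, and unnamed clusters outside the erythroid, neutrophil and platelet-biased ones were counted as stem cells, so differences from the study may come from these names. Scrublet marked 2 and 1 cells, which stayed in. Values of 1 erythroid cluster on its own are not reported here, though its cells are in the erythroid sums.

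UMIs were summed per kind and library. Levels have exact Poisson intervals, ratios exact conditional binomial intervals and shares Clopper-Pearson intervals, at 95%. Genes needed 20 UMIs for a fold. edgeR 4.0.16 gave TMM factors as an alternative only. With 1 library per genotype no model was fitted and no p-value was computed. The interval script was tested on simulated data.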

Additional observations from a re-analysis of the deposited data

Results flagged for a closer look

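A signal of the 7 genes appeared outside the cells and the empty droplets compared in the report. Barcodes with more than 100 UMIs that were not called cells held 1050 CPM of the 7 genes together in the Id2+/+ library and 861 CPM in the Id2-deleted library, above the stem levels of 197 and 302 CPM. No control sample measures this level, and what these barcodes hold was not tested.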

How the results depend on the processing

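No paired analysis was possible because there was only 1 library of either genotype. Settings that move or leave out the Ccnb2-led or Lgals3-led cluster, split cells singly or cap the subtraction were chosen after seeing the data. The erythroid and empty-droplet counts of 6 of 7 genes past 2-fold held under every alternative that gave them. Of 210 alternative values of the main results 162 stayed close to the reported value, 46 moved and 2 reversed. Of 546 alternative values of the other results 482 stayed close, 55 moved and 9 reversed.

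The stem ratio of the 7 genes, 1.54, was 0.988 at resolution 0.5, 1.23 at resolution 1.5, 1.15 with cell-cycle genes kept in the clustering, 1.09 with each library clustered on its own, 1.21 with cells split singly, 1.0 with the Ccnb2-led cluster left out or counted as platelet-biased, 0.948 with the Lgals3-led cluster left out too, 3.21 after subtraction and 1.82 after capped subtraction. The cause was not tested for the clustering settings. Leaving out the cluster removes Ccnb2-rich cells of 1 library. TMM factors gave 1.68.

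The platelet-biased ratio, 1.35, was 1.69 with the labelled number of cells, 1.55 at 1000 UMIs and 500 genes, 1.10 at resolution 0.5, 1.70 with separate clustering, 1.54 after either subtraction and 1.11 with the cluster added. The neutrophil ratio, 1.34, was 1.63 after either subtraction. The ratio of stem and platelet-biased cells together, 1.32, was 1.76 after subtraction and 1.5 when capped. The erythroid ratio, 1.14, was 1.21 by TMM and 1.23 as a mean over cells.

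Members at least 1.5-fold higher in stem cells, 4, were 1 with cell-cycle genes kept, at resolution 0.5, with separate clustering and without the Ccnb2-led cluster in each way (placed elsewhere, left out, or left out with the Lgals3-led one), and 2 at resolution 1.5, with single-cell splitting and at 2-fold. Members lower, 0, were 2 at resolution 0.5, with separate clustering and without the Ccnb2-led cluster in each way, and 1 at 1000 UMIs, with cell-cycle genes kept, after capped subtraction, as a mean over cells and with single-cell splitting.

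Of single genes whose counting interval left out 1, those that changed direction were Ccnb2 in stem cells (0.483 at resolution 0.5, 0.474 with the Ccnb2-led cluster left out or counted as platelet-biased, 0.366 without both clusters), Ccnb2 in both kinds together (0.809 without the Ccnb2-led cluster, 0.896 without both), Ccna2 in platelet-biased cells (0.915 at resolution 0.5, 0.927 with the cluster added) and Ccne1 in both kinds together after subtraction (1.95). Genes whose interval took in 1 also crossed it: in stem cells Ccna2 was below 1 in 9 of 17 alternatives and Ccne2 in 4 of 18, and in platelet-biased cells Ccnb2, 0.998, was above 1 in 11 of 15 (up to 1.44), Cdk2 in 7 of 15 and Ccne1 in 2 of 15, and in erythroid cells Cdk2 in 1 of 11. The Id2-deleted share of stem cells with any member, 67.9%, was 62.7% at resolution 0.5, 79.9% without thinning, 61.3% thinned to 4700 UMIs or without both clusters and 36.6% for at least 2 UMIs, where the Id2+/+ share was 27.2%.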
